A study of Arabidopsis thaliana with 4 samples.

Results

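ATA20, ATA27, EMS1 and SPL are Arabidopsis thaliana genes of the anther, the part of the stamen in which pollen forms. Their probes were taken as every gene probe whose platform annotation lists ATA20 (AT3G15400), ATA27 (AT1G75940), EMS1 (AT5G07280) or SPL (AT4G27330). These are 4 of the 5443 genes that have a probe listing no other gene. They had 6 of the 26474 gene probes on the array, with 2 for ATA20, 2 for ATA27, 1 for EMS1 and 1 for SPL. Each of the 6 lists 1 gene only, and each had a measured ratio on all 4 arrays.

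The arrays set total RNA from apetala2 mutant inflorescences against total RNA from wild-type inflorescences, with 1 genotype in each of 2 channels. The labels name no allele, plant age, growth condition or dye, and no probe lists AP2 itself, so the mutant could not be checked by its own gene. The 4 arrays are called sets 1 to 4, and the labels put apetala2 RNA in channel 1 of sets 1 and 3, with wild type there in sets 2 and 4. Whether the sets came from separate plants is not stated, so p-values cover only the variation among these 4 hybridisations, which may be technical.

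Anthers build pollen in steps. SPL, also known as NOZZLE or SPOROCYTELESS, encodes a nuclear regulator that cells need to enter the sporogenous, pollen-forming lineage. EMS1 encodes a receptor kinase through which neighbouring cells become tapetum, the cell layer that nourishes developing microspores. ATA20 and ATA27 were named as anther genes, and ATA27 belongs to the beta-glucosidase family, in which it is also called BGLU20. The tapetum breaks down before pollen is mature, so its transcripts and those of mature pollen mark different stages of the stamen. APETALA2 regulates the identity of floral organs, and stamens are fewer in strong mutants. In RNA from whole inflorescences, fewer anther cells and less RNA per cell cannot be told apart.

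Values are the deposited log2 ratios of the channels, in which a value of 1 is a difference of 2-fold. The labels do not say which channel is the numerator. For means, sets 2 and 4 were turned in sign, so that a positive mean is a higher level in apetala2 where channel 1 was divided by channel 2, and a lower level where channel 2 was divided by channel 1. Sets 1 and 2 and sets 3 and 4 are each a pair with apetala2 in opposite channels, and a constant channel effect cancels in the mean of a pair. Over all probes the deposited ratios correlated at r = -0.479 between sets 1 and 2 and at r = -0.474 between sets 3 and 4. Sets 1 and 3, which share the labelled channel, correlated at r = -0.227. The direction of sets 3 and 4 relative to sets 1 and 2 is therefore unsettled, and comparisons of the pairs are also given with sets 3 and 4 turned in sign.

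In sets 1 and 2, 1 ATA27 probe and 1 ATA20 probe differed between the genotypes, by 5.06-fold and 4.03-fold on the same side. Both calls were lost without set 1 or set 2, which leaves 1 array in the pair. Nearly all calls over all probes were lost then too, so the loss does not set these 2 probes apart. The other 4 probes did not pass. The second ATA27 probe lay on the side opposite to the first with 1.24-fold, and the second ATA20 probe on the side of its first with 2.38-fold. EMS1 lay on the side opposite to ATA20 with 1.91-fold, and SPL on the side of ATA20 with 1.38-fold. None of the 6 probes differed by more than 1.29-fold in sets 3 and 4. Calls were made in limma at a Benjamini-Hochberg adjusted p under 0.05 over 25777 probes. In sets 1 and 2, 2 of the 6 probes passed, both on the negative side, where 3.17% of all probes passed. In sets 3 and 4, 0 of the 6 passed in limma and 0 had an unadjusted p under 0.05, against 3.17% of all probes that passed in either direction and 15.8% at the unadjusted level. The median of the 6 probes was -0.86 in sets 1 and 2 and -0.06 in sets 3 and 4, beside medians of 0.05 and -0.02 over all tested probes.

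**Figure D1:**
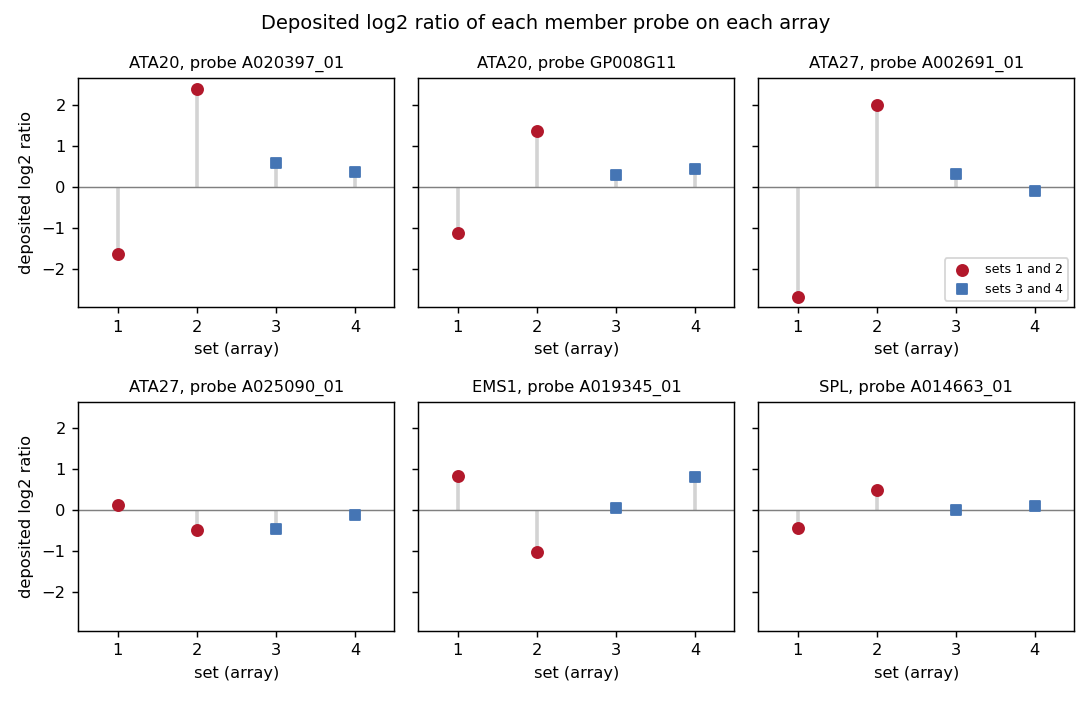
Deposited log2 ratio (vertical axis) of each of the 6 probes on sets 1 to 4 (horizontal axis), 1 panel a probe, with circles for sets 1 and 2 and squares for sets 3 and 4. Both ATA20 probes and ATA27 probe A002691_01 are below -1 on set 1 and above 1 on set 2, and all 3 stay within 1 on sets 3 and 4.

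ATA27 gave the largest ratio of the 4 genes on 1 of its probes. On probe A002691_01 the deposited log2 ratios were -2.69 and 1.99 on sets 1 and 2, against 0.30 and -0.11 on sets 3 and 4. The first pair was thus large and opposite in sign, with apetala2 in opposite channels, and the second pair lay near 0. The mean signed by labelled channel was -2.34 ± 0.22 in sets 1 and 2 (SE, n = 2 arrays, limma adjusted p = 0.0203) and 0.20 ± 0.22 in sets 3 and 4 (SE, n = 2 arrays, limma adjusted p = 0.738). Of all tested probes, 0.466% had a mean at least this large in size in sets 1 and 2. The 95% interval in sets 3 and 4 ran from -0.36 to 0.77, which does not reach the size in sets 1 and 2 on either side. With 1 array of the first pair left out the call was lost, as were nearly all calls over all probes. The mean was -1.99 without set 1 and -2.69 without set 2. Over the 8 alternatives tried its adjusted p ranged from 0.0164 to 0.137.

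The other ATA27 probe did not repeat this. Probe A025090_01 had deposited log2 ratios of 0.14, -0.48, -0.46 and -0.11 on sets 1 to 4. No array was beyond 0.5, and the mean in sets 1 and 2 was 0.31 ± 0.21 (SE, n = 2 arrays, limma adjusted p = 0.560), on the side opposite to the first probe. The 95% interval of that mean was -0.23 to 0.85, against -2.90 to -1.78 for probe A002691_01. Its mean in sets 3 and 4 was -0.18 ± 0.21 (SE, n = 2 arrays). The ratio of ATA27 therefore depends on the probe, and the files do not show which of them reads the ATA27 transcript.

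ATA20 showed the same side on both probes. On probe A020397_01 the deposited log2 ratios were -1.63 and 2.39 on sets 1 and 2, against 0.59 and 0.37 on sets 3 and 4. On probe GP008G11 they were -1.14, 1.36, 0.29 and 0.43 on sets 1 to 4. Both probes were below -1 on set 1 and above 1 on set 2, and all 4 values on sets 3 and 4 were positive. The means in sets 1 and 2 were -2.01 ± 0.31 for A020397_01 (SE, n = 2 arrays, limma adjusted p = 0.0386) and -1.25 ± 0.22 for GP008G11 (SE, n = 2 arrays, limma adjusted p = 0.0537), so the second missed the threshold. In sets 3 and 4 the means were 0.11 ± 0.31 and -0.07 ± 0.22 (SE, n = 2 arrays each). The unturned means of these sets, 0.48 for A020397_01 and 0.36 for GP008G11, were not tested. The call of A020397_01 was lost without set 1 and without set 2, as were nearly all calls over all probes. Its mean was -2.39 without set 1 and -1.63 without set 2. Over the 8 alternatives its adjusted p ranged from 0.0213 to 0.159. GP008G11 passed without set 3 (limma adjusted p = 0.0315) and without set 4 (limma adjusted p = 0.0336), within a range of 0.0315 to 0.234 over its 8 alternatives.

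EMS1, the tapetum-specifying receptor kinase, was on the other side of 0 from ATA20 in sets 1 and 2. Its deposited log2 ratios on probe A019345_01 were 0.85 and -1.01 on sets 1 and 2, against 0.06 and 0.80 on sets 3 and 4. The 2 arrays of the first pair were alike in size and opposite in sign, whereas in the second pair set 3 was near 0 and set 4 was as large as set 1. The mean was 0.93 ± 0.25 in sets 1 and 2 (SE, n = 2 arrays, limma adjusted p = 0.133) and -0.37 ± 0.25 in sets 3 and 4 (SE, n = 2 arrays, limma adjusted p = 0.553). The unadjusted p in sets 1 and 2 was 0.0127 in limma, and 17.3% of all probes had an unadjusted p under 0.05 there.

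SPL, the regulator that acts earliest of the 4 genes, had the smallest ratios of the genes with a single probe. Probe A014663_01 gave deposited log2 ratios of -0.43, 0.51, 0.01 and 0.10 on sets 1 to 4. The first pair had opposite signs and both arrays of the second pair were near 0. The mean was -0.47 ± 0.15 in sets 1 and 2 (SE, n = 2 arrays, limma adjusted p = 0.203) and -0.05 ± 0.15 in sets 3 and 4 (SE, n = 2 arrays, limma adjusted p = 0.931). Its 95% intervals were -0.85 to -0.08 and -0.43 to 0.34.

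Ordered by the mean in sets 1 and 2, the probes ran from ATA27 A002691_01 through ATA20 A020397_01, ATA20 GP008G11, SPL and ATA27 A025090_01 to EMS1. The 95% intervals of each probe and the next in this order overlapped. All 6 probes had opposite deposited signs on sets 1 and 2, as 60.9% of all probes did. On sets 3 and 4, 1 of the 6 did, beside 62.0% of all probes.

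**Figure D2:**
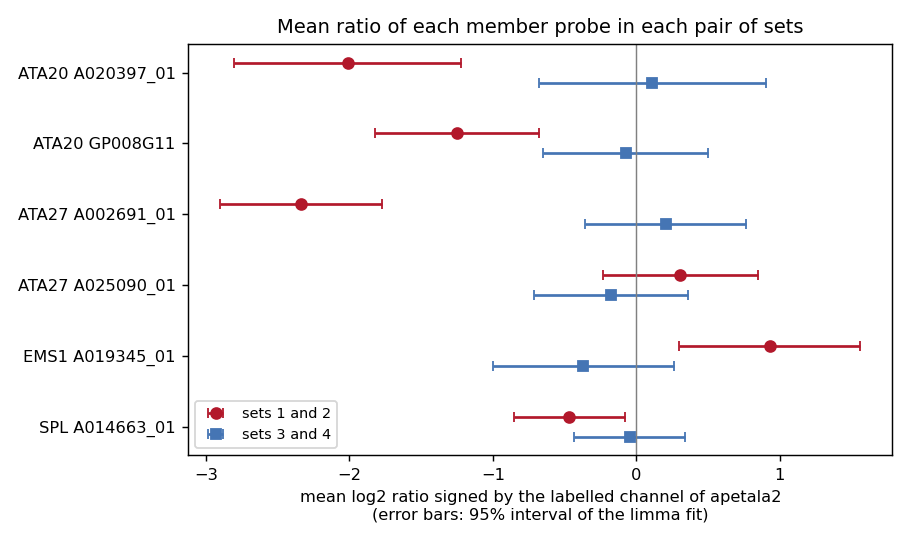
Mean log2 ratio signed by the labelled channel of apetala2 (horizontal axis) of each probe (vertical axis) in sets 1 and 2 (circles) and sets 3 and 4 (squares), with 95% intervals of the limma fit. The intervals of sets 1 and 2 exclude 0 for both ATA20 probes, ATA27 A002691_01, EMS1 and SPL, and those of sets 3 and 4 include 0 for all 6 probes.

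Whether the pairs of sets differed was tested directly, as the mean of sets 1 and 2 minus that of sets 3 and 4. With the labelled channels, ATA27 A002691_01 differed by -2.54 ± 0.31 on the log2 scale (SE, n = 4 arrays, limma adjusted p = 0.0172), and it was the 1 of the 6 probes that passed, where 4.46% of all probes passed on the negative side. ATA20 A020397_01 had -2.12 ± 0.44 (SE, n = 4 arrays, limma adjusted p = 0.0658), ATA20 GP008G11 -1.17 ± 0.32 (SE, n = 4 arrays, limma adjusted p = 0.125) and EMS1 1.30 ± 0.35 (SE, n = 4 arrays, limma adjusted p = 0.123). SPL had -0.42 ± 0.21 and ATA27 A025090_01 0.49 ± 0.30 (SE, n = 4 arrays each).

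With sets 3 and 4 turned in sign, 0 of the 6 probes passed in limma and 3 had an unadjusted p under 0.05, where 0.00% of all probes passed and 14.8% had an unadjusted p under 0.05. ATA27 A002691_01 then had -2.13 ± 0.31 (SE, n = 4 arrays, limma adjusted p = 0.0914), ATA20 A020397_01 -1.90 ± 0.44 (limma adjusted p = 0.157) and ATA20 GP008G11 -1.32 ± 0.32 (limma adjusted p = 0.169). For these 3 probes the 95% interval of the difference excluded 0 in both orientations, with -3.34 to -1.75 and -2.93 to -1.34 for A002691_01. The side of the difference was kept in all 6 probes. That follows from means in sets 3 and 4 smaller in size than those in sets 1 and 2, and is no separate result. EMS1 had 0.56 ± 0.35 with sets 3 and 4 turned, with an interval of -0.33 to 1.45. The call of ATA27 with the labelled channels was lost without set 1 (limma adjusted p = 0.0535), and ATA20 A020397_01 passed without set 4 (limma adjusted p = 0.0454). Over the 9 alternatives of each difference the adjusted p ranged from 0.0117 to 0.0914 for ATA27 A002691_01 and from 0.0454 to 0.186 for ATA20 A020397_01.

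Taken over all 4 sets as 1 comparison with the labelled channels, none of the 6 probes passed in limma and 0 had an unadjusted p under 0.05, where 0.00% of all probes passed and 6.55% had an unadjusted p under 0.05.

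The pattern of ATA20 and ATA27 was shared by many probes. Of 25185 probes measured on all 4 arrays, 3.43% were below -1 on set 1 and above 1 on set 2, and 3 of the 6 anther probes were among them. Of all probes 1.68% did so and also stayed within 1 on sets 3 and 4, and the same 3 anther probes did. Another 1.18% were below -1 on sets 1 and 4 and above 1 on sets 2 and 3, and 0 of the 6 anther probes were among these. The pattern is that of the 3 anther probes themselves, so their count is no separate result. Of the probes below -1 on set 1 and above 1 on set 2, 48.8% stayed within 1 on sets 3 and 4, beside 89.7% of all probes.

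The other genes of the anther lists had few probes. The 4 anther lists, for early cell fate, tapetum transcription factors, tapetum products with the pollen wall, and the pollen coat, held 55 genes. Besides the 6 probes described, 10 probes list at least 1 of these genes, and only 1 of them lists no other gene. No probe lists a gene of the 7 on the pollen coat list. All 10 had a negative mean in sets 1 and 2. Their median was -1.37, and 7 passed, all on the negative side, where 3.17% of all probes passed. Their median in sets 3 and 4 was -0.07. Several list the same loci and so do not stand for separate genes. All gene lists used here were chosen with earlier results of these data known, so the 7 calls are no separate result. The median was -1.27 without set 1 and -1.58 without set 2. All calls of the 10 probes were lost in both cases, as were nearly all calls over all probes. With set 3 or set 4 left out 7 passed in each case.

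On the list of early cell fate, 2 probes list both ROXY1 and ROXY2, glutaredoxins required in anther development. Their means in sets 1 and 2 were -0.32 ± 0.19 and -0.75 ± 0.30 (SE, n = 2 arrays each), and neither passed or had an unadjusted p under 0.05. In sets 3 and 4 the means were -0.53 ± 0.19 and 0.00 ± 0.30 (SE, n = 2 arrays each), so the first probe lay further from 0 there. Neither passed in sets 3 and 4, and the first had an unadjusted p under 0.05 in limma, as 15.8% of all probes did. SERK1, SERK2, TPD1, BAM1 and BAM2, which encode receptor kinases and a ligand of the same cell-fate step, had no probe that lists them.

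On the list of tapetum transcription factors, 3 probes list the loci AT1G06170, AT2G31210 and AT2G31220 in different combinations, and all 3 passed on the negative side in sets 1 and 2. The probe that lists AT1G06170 and AT2G31220 had deposited log2 ratios of -1.56, 1.22, 0.09 and 0.09 on sets 1 to 4. Its mean was -1.39 ± 0.17 in sets 1 and 2 (SE, n = 2 arrays, limma adjusted p = 0.0255) and 0.00 ± 0.17 in sets 3 and 4, and its difference between the pairs passed with the labelled channels (limma adjusted p = 0.0414) but not with sets 3 and 4 turned (limma adjusted p = 0.107). Like ATA27 A002691_01, it was large on both arrays of the first pair and near 0 on both of the second. Its difference did not pass with any 1 set left out. The other 2 probes had means of -1.64 ± 0.24 and -1.23 ± 0.20 in sets 1 and 2 and of -0.27 and -0.14 in sets 3 and 4. The probe at -1.64 also lists AT2G31215, a locus that is not on this list.

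On the list of tapetum products and the pollen wall, 5 further probes were measured, and 4 passed on the negative side in sets 1 and 2. RPG1, the sugar transporter SWEET8 that pollen wall formation needs, was the gene with a probe of its own, at -1.35, 1.12, -0.04 and -1.06 on sets 1 to 4. Its mean was -1.24 ± 0.29 in sets 1 and 2 (SE, n = 2 arrays, limma adjusted p = 0.102) and 0.51 ± 0.29 in sets 3 and 4 (SE, n = 2 arrays). Set 4 was thus as far from 0 as set 2 while set 3 was near 0, unlike ATA20 and ATA27. A probe that lists AT5G07230 with 2 other loci had -1.93, 1.88, -0.64 and 1.14, so that its deposited sign alternated over the 4 sets, with means of -1.90 ± 0.19 in sets 1 and 2 (SE, n = 2 arrays, limma adjusted p = 0.0203) and -0.89 ± 0.19 in sets 3 and 4 (SE, n = 2 arrays, limma adjusted p = 0.0962). A probe that lists SWEET8 with AtVEX1 and SWEET4 had -2.59, 2.54, 1.29 and -1.87, with a mean of 1.58 ± 0.20 in sets 3 and 4 (SE, n = 2 arrays, limma adjusted p = 0.0259), a call lost without set 1, 2 or 4. Probes of this list near 0 in sets 3 and 4 therefore stood beside others that were not. The 1 that passed there also lists AtVEX1 and SWEET4, so its ratio cannot be assigned to SWEET8 or to the tapetum.

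With the labelled channels, probes of mature pollen genes lay on opposite sides of 0 in the 2 pairs of sets. Of the 26 genes on that list, 7 had a probe, and 9 probes list at least 1 of them. Their median was -1.91 in sets 1 and 2, where 5 passed on the negative side, and 2.35 in sets 3 and 4, where 6 passed on the positive side. These probes are not separate genes. Only the probe of TUA1, a tubulin gene, lists 1 gene, 4 probes list PPME1, a pectin methylesterase, and 2 list VGD1 and VGDH1, of the same enzyme family. Of the 6 that passed in sets 3 and 4, 4 list PPME1, 1 lists VGD1 and VGDH1, and 1 lists ANX1 and ANX2 with FER. The probes of TUA1, at 0.46, and of MGH3 with HTR12, at 0.33, did not pass in either pair, and one VGD1 probe had no measured ratio on set 3, so its mean in sets 3 and 4 is that of set 4. The range in sets 3 and 4 was 0.33 to 2.98, against -0.37 to 0.20 for the 6 anther probes. Of all probes, 50.1% had a mean at least as large in size there as ATA27 A002691_01 at 0.20. For EMS1 at -0.37 that share was 26.5%. Another probe of the anther lists, at 1.58, lay within the range of the pollen probes. Of all probes, 2.43% passed on the positive side in sets 3 and 4. The difference between the lists was not tested. The 8 probes of carpel and ovule genes lay on both sides of 0, with 3 below 0 in sets 1 and 2. They ran from -0.65 to 2.52 with a median of 0.13 in sets 1 and 2, and from -1.72 to 0.67 with a median of -0.21 in sets 3 and 4. In sets 1 and 2, 2 of them passed on the positive side, 1 that lists CES and 1 that lists ALC and SPT, where 1.16% of all probes did. In sets 3 and 4 the same 2 probes passed on the negative side, at -1.72 and -1.36. There 3.17% of all probes passed in either direction, most of them on the positive side (2.43% of all probes). Over 25185 probes measured on all 4 arrays the pair means correlated at r = -0.337. With the labelled channels, opposite sides in the 2 pairs were thus not particular to pollen probes. There the median pair difference was -4.59 for pollen, and 7 of 9 probes passed, beside 4.46% of all probes on the negative side. For carpel it was 0.23, and 3 of 8 passed, beside 1.45% on the positive side. With sets 3 and 4 turned in sign, every pollen mean was negative in both pairs. The median differences were then 0.22 and 0.01, and 0 passed of these or of all probes. Without set 1 or set 2 the pollen and carpel calls in sets 1 and 2 were lost, as were nearly all calls over all probes. The pollen median was -1.67 without set 1 and -2.14 without set 2, and the carpel median 0.11 and 0.23. In sets 3 and 4, 1 carpel and 6 pollen probes passed without set 1, and the same numbers without set 2. With 1 array left in that pair, the pollen median was 2.37 without set 3 and 2.35 without set 4. The carpel median was then -0.14 and -0.30.

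**Figure D3:**
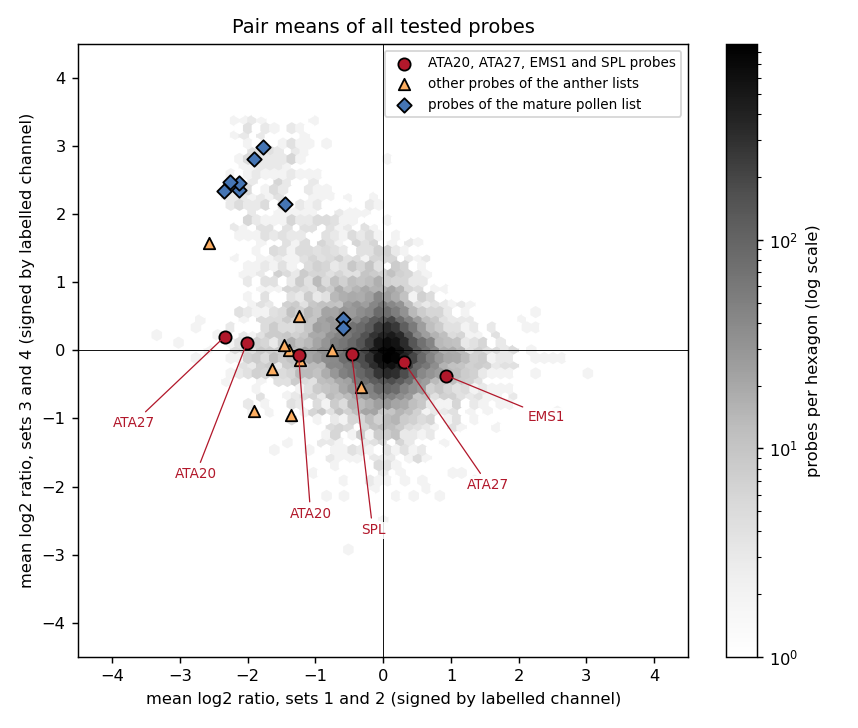
Mean log2 ratio of sets 1 and 2 (horizontal axis) against sets 3 and 4 (vertical axis), both signed by labelled channel, with grey hexagons for the density of all tested probes (log scale) and 11 probes beyond 4.5 outside the axes. The ATA20 probes and ATA27 A002691_01 lie left of 0 and within 0.21 of 0 on the vertical axis, while mature pollen probes (diamonds) reach 2.98 there. Other probes of the anther lists (triangles) reach 1.58.

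ATA27 is one of several related beta-glucosidases, whose ratios are given here because its own probes disagreed. Of 9 relatives on that list 5 had a probe, and 6 probes list at least 1 of them. Their means in sets 1 and 2 ran from -0.71 to 0.33 with a median of -0.17. None passed in limma, and 2 had an unadjusted p under 0.05. The mean of ATA27 A025090_01, at 0.31, lay within that range, and that of A002691_01, at -2.34, outside it. BGLU24 had -0.71 ± 0.16 and BGLU25 0.13 ± 0.18 on probes of their own (SE, n = 2 arrays each). Whether either ATA27 probe also binds a relative was not tested.

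How often probes of 1 gene disagree was read from 243 genes with exactly 2 probes of their own measured on all 4 arrays. Across these genes the means of the first and second probe in sets 1 and 2 correlated at r = 0.396, a description over genes that share the same arrays. The median difference between the probes was 0.20 on the log2 scale. ATA27 had the largest of the 243, a difference of 2.65. ATA20 had a difference of 0.76, and 27 genes, itself included, had at least that. Of 16 genes with a probe at or beyond 1 in sets 1 and 2, ATA20 and ATA27 included, 5 had probes of opposite sign.

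**Figure D4:**
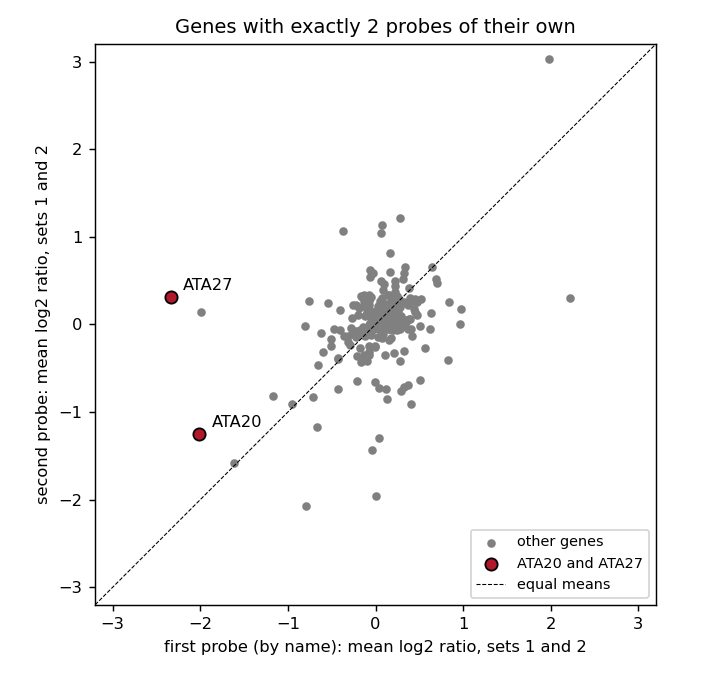
Mean log2 ratio in sets 1 and 2 of the first probe (horizontal axis) and second probe (vertical axis) of each of 243 genes with exactly 2 probes of their own, signed by labelled channel, with the dashed line where both are equal. ATA20 is negative on both axes (-2.01 and -1.25), while ATA27 is negative on its first probe only (-2.34 and 0.31).

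Probes most like each anther probe were found by the root mean square difference over the 4 deposited ratios, among probes that list 1 other gene and were measured on all 4 arrays. Only probes with a root mean square above 0.5 were used, which left out SPL and ATA27 A025090_01. ATA20 A020397_01 was nearest to IQD19, of the family of IQ-domain proteins, with a difference of 0.296. Its next neighbours were both probes of AT1G06260, at 0.308 and 0.324. IQD19 had -1.65, 1.86, 0.70 and 0.13 on sets 1 to 4. The AT1G06260 probes had -2.08, 1.997, 0.69 and 0.49 and -1.99, 2.19, 0.09 and 0.44, so 2 probes of this gene lay near ATA20 A020397_01. The other ATA20 probe was at 0.592 from A020397_01, and 25 probes of other genes were as near or nearer to it. From GP008G11 at that distance there were 188. From ATA27 A002691_01 its own second probe was at 1.91, with 4451 probes of other genes as near or nearer.

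ATA20 GP008G11 was nearest to AT5G15190, AT2G38010 and AT4G22790, with root mean square differences of 0.152, 0.160 and 0.181. All 3 were negative on set 1 and above 1 on set 2. ATA27 A002691_01 was nearest to AT4G24140, AT3G12685 and CSLA01, of the cellulose synthase-like A family, with 0.259, 0.272 and 0.303. AT4G24140 had -2.52, 1.97, 0.33 and 0.38 on sets 1 to 4, and AT3G12685 had -2.24, 2.07, 0.07 and 0.08. In both, as in ATA27, sets 3 and 4 stayed within 0.5. All of these neighbours were picked by likeness over the same 4 ratios, so their shared pattern is no separate result. EMS1 was nearest to UGT73B1, a UDP-glucosyltransferase, AT5G40020 and AT2G16630, with 0.147, 0.181 and 0.190. UGT73B1 had 1.01, -0.84, -0.02 and 0.65, so that set 3 was near 0 and set 4 was positive, as for EMS1.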

How the data were processed

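Deposited were log2 ratios of the 2 channels of 4 Operon arrays, which the authors processed and normalized by the methods of a former paper, per the labels. The sources used here give neither scanner, background correction and filters nor the numerator. Without intensities the brightness behind a ratio is unknown, and precision is limited by the 4 arrays.

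The table held 26933 spots, of which 459 control spots were left out. Deposited values stop at 6.64 on either side, the log2 of a ratio of 100, and values within 0.0001 of that limit were dropped. Measured gene probes numbered 25741 to 25841 per array. Probes measured on at least 3 arrays (25777) were fitted with lmFit and eBayes (limma 3.58.1, R 4.3.3), with a mean for each pair of sets after sets 2 and 4 were turned, and with an intercept for all 4 sets. Tests were two-sided against 0, errors are moderated standard errors, and both pairs share 1 estimate of the spread. The fit was tested on simulated data. Alternatives kept the limit values, used only probes measured on all 4 arrays, centred or scaled the arrays, left out each set, averaged pairs or changed signs.

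Genes were named from the platform annotation, and symbols were updated from the gene table of assembly TAIR10.1. Coordinates are left out because the sources used here do not give a build for the probes. The genes named are every member probe, the anther list probes with 1 gene, and the 3 nearest probes of each member. List probes with several genes, CES, BGLU24 and BGLU25 were named after their values were seen. Members and lists were chosen with earlier results of these data known.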

Additional observations from a re-analysis of the deposited data

Results flagged for a closer look

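ATA27 probe A002691_01 had a difference between sets 1 and 2 and sets 3 and 4 of -2.54 on the log2 scale that passed in limma with the labelled channels (adjusted p = 0.0172). The mean was -2.34 in sets 1 and 2 and 0.20 in sets 3 and 4. With sets 3 and 4 turned in sign the difference was -2.13 and did not pass (limma adjusted p = 0.0914). The other ATA27 probe, A025090_01, had a difference of 0.49 (limma adjusted p = 0.460). The sets differ in nothing that the labels name apart from their numbers and channels.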

How the results depend on the processing

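With values at the limit kept, 0 of the 6 probes passed in limma in sets 1 and 2, against 2, and 0 passed in the difference between the pairs, against 1, although none of the 6 has a value at the limit. Over all probes the calls then numbered 0 in both comparisons, and the cause was not tested. With sets 3 and 4 turned the difference was passed by 0 probes. Leaving out each set in turn gave 0 to 3 passing probes in sets 1 and 2 and 0 to 2 in the difference. A lone array of a pair is assumed there to vary like the other pair. In sets 3 and 4 and over all 4 sets with the labelled channels 0 of the 6 passed under every alternative run. In the main fit over all 4 sets 0 of all probes passed, so that result does not set the 6 apart. Turning sets 2 and 3 was added after the data were seen. With it 528 of all probes and 0 of the 6 passed, and 2 of the 6 had an unadjusted p under 0.05 in limma. Signs changed only for some of the means that lay from -0.37 to 0.11 in the main fit, and only with a set left out. In sets 3 and 4 those means ranged from -0.37 to 0.59 for ATA20 A020397_01, -0.43 to 0.29 for ATA20 GP008G11, -0.46 to 0.11 for ATA27 A025090_01, -0.80 to 0.0642 for EMS1 and -0.10 to 0.0118 for SPL, and over all 4 sets from -0.0723 to 0.24 for ATA27 A025090_01. ATA20 GP008G11 passed in sets 1 and 2 with arrays centred (limma adjusted p = 0.0469), with arrays centred and scaled (limma adjusted p = 0.0462) and with probes measured on all 4 arrays (limma adjusted p = 0.0478), within a range of 0.0315 to 0.234. Each ratio already compares both genotypes on 1 array, and no replicate number occurs on more than 1 array, so no fit with the number as a block could be made.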
